A study of Mus musculus with 18 samples.

Results

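The 7 genes described here are grouped as the myeloid members of the mouse Ms4a family: Ms4a4a, Ms4a4b, Ms4a4c, Ms4a6b, Ms4a6c, Ms4a6d and Ms4a7. They were found by gene symbol in the array annotation among probe sets with 1 symbol, and each had 1 such probe set. All 7 were among the 14003 genes tested, of 19937 genes represented. Expression was measured on 18 Affymetrix arrays of colon lamina propria cells that were sorted as MHC+CD11chigh from BALB/c mice aged 8 weeks. The cells were divided by surface CD103 and CD11b into 3 subsets, CD103+CD11b-, CD103+CD11b+ and CD103-CD11b+, with or without a prior 2% treatment with dextran sulfate sodium (DSS), an agent toxic to the colon epithelium that is used to induce colitis. Each of the 6 groups held 3 arrays, and the titles number the experiments 1 to 3 without DSS and 4 to 6 with DSS. No label calls a sample untreated; arrays whose title does not name DSS are called so here. All groups share the strain, the age, the tissue and the gate. Neither the number of mice behind an array nor the use of separate animals is given in the labels, and p-values therefore reflect only the variation among these arrays, which may be technical. No experiment held both conditions, so experiment and DSS cannot be told apart.

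Ms4a proteins span the cell membrane several times, and many associate with immune receptors and adjust their signalling. The family's founding member is Ms4a1, the B-cell antigen CD20, and Ms4a2 is the beta chain of the high-affinity IgE receptor of mast cells. Most of the genes described here are known mainly from monocytes, macrophages and some dendritic cells. Ms4a4b is known from T cells, and Ms4a6b from both macrophages and T cells. In the intestine, CD103+CD11b- cells are largely the cross-presenting cDC1 lineage, CD103+CD11b+ cells are cDC2, and CD11b+ cells without CD103 mix cDC2 with cells of the monocyte and macrophage lineage.

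On chromosome 19 the 7 genes lie close together, in the RefSeq order Ms4a7, Ms4a4a, Ms4a4c, Ms4a4b, Ms4a6c, Ms4a6b and Ms4a6d, with Gm8369 between Ms4a6c and Ms4a6b and Ms4a4d between Ms4a6b and Ms4a6d. RefSeq promoter windows (GRCm38.p6), from 250 bases before to 50 bases after a transcription start, matched 6 of the 7 members, with 2 windows for Ms4a7. The windows of Ms4a4c and Ms4a4b are shown because these neighbours are alike in sequence and differed in their expression. Capitals mark the PU.1 core GAGGAA, a motif of the myeloid factor PU.1, and the AP-1 motif TGANTCA, both searched on both strands.

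Ms4a4c, chr19:11407411-11407710, plus strand: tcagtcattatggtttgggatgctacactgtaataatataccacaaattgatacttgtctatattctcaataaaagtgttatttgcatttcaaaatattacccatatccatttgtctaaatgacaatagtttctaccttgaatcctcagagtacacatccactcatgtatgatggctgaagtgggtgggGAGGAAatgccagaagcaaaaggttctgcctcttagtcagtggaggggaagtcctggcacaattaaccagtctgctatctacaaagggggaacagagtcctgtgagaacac

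Ms4a4b, chr19:11443308-11443607, plus strand: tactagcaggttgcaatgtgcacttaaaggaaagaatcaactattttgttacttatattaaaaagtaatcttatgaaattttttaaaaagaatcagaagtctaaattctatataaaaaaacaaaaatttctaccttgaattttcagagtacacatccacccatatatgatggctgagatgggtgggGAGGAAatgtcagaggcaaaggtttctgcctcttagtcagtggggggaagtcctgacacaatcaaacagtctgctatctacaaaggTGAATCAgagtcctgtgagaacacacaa

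The windows of Ms4a4b and Ms4a4c were identical at 72.3% of the positions of their alignment, gaps included, and at 77.9% of the positions where both had a base. Both held GAGGAA, starting at position -61 from the transcription start of Ms4a4c and at -64 from that of Ms4a4b. The motif was also present once in the upstream window of Ms4a7, at position 44 after its transcription start. Of the 32851 RefSeq promoter windows, 28.3% held it. Ms4a4b alone of this pair held an AP-1 motif, which 7.81% of all windows held. The downstream window of Ms4a7 held an AP-1 motif as well, at position -81. The C/EBP motif TTGCNNAA, present in 10.8% of all windows, was in none of the members' windows. The windows of Ms4a6c and Ms4a6b are shown as the other pair of close relatives; neither held any of the 3 motifs.

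Ms4a6c, chr19:11469118-11469417, plus strand: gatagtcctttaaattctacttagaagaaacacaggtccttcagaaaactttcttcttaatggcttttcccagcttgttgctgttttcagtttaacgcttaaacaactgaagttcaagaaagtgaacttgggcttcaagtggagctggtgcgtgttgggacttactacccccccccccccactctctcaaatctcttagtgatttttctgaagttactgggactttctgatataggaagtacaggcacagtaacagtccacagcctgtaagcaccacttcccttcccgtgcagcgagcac

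Ms4a6b, chr19:11518309-11518608, plus strand: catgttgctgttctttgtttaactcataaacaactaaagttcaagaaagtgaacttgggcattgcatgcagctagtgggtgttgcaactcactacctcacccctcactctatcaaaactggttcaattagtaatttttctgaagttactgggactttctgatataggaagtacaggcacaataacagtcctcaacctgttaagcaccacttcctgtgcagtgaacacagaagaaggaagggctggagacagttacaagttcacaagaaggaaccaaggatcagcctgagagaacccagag

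These windows were identical at 51.2% of alignment positions, gaps included, and at 85.3% of the positions where both had a base. Every other pair of windows was identical at 43.4% to 48.2% of alignment positions, gaps included. Probe sequences were not used here, so signal shared between the probe sets of such related genes was not tested.

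Marker genes followed the sort. Itgam, which encodes CD11b, had a log2 mean of 5.14 ± 0.51 (SD, n = 3) in untreated CD103+CD11b- cells, 7.31 ± 0.08 in CD103+CD11b+ and 7.93 ± 0.23 in CD103-CD11b+. Itgae, which encodes CD103, was at 9.37 ± 0.09, 8.84 ± 0.14 and 6.35 ± 0.11 in the same order. With DSS the means were 6.13, 7.36 and 8.01 for Itgam and 9.61, 9.06 and 7.44 for Itgae. Xcr1, a cDC1 receptor, was highest in CD103+CD11b- cells at 9.62 ± 0.12. Macrophage markers ran the other way: the mean log2 value of 18 macrophage genes, including Csf1r, C1qa and Mrc1, lay between 6.19 and 6.31 on the untreated CD103+CD11b- arrays, 6.71 and 6.77 on CD103+CD11b+ and 7.37 and 7.85 on CD103-CD11b+. The array at 7.85, replicate 2 of untreated CD103-CD11b+, stood apart: it was the highest of its group for 15 of the 18 macrophage genes and for 6 of the 7 Ms4a genes, against 32.4% of all genes tested. Values without it are given beside the larger differences that it moved. In sorted bulk RNA, a larger share of macrophage-like cells and more RNA per cell cannot be told apart.

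All of the genes except Ms4a4b were lowest in CD103+CD11b- cells in both conditions, and Ms4a4b was near the filter level in every group. Ms4a6d and Ms4a4c were high in both CD11b+ subsets, with no call between these. Ms4a6c differed between all 3 subsets, though its call between the DSS CD11b+ subsets was lost with single arrays left out. Ms4a7 and Ms4a6b were highest in CD103-CD11b+ cells, and without DSS both were called against CD103+CD11b+ cells, though these calls were lost with single arrays left out. DSS changed none of the 7 past the threshold in any subset.

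**Figure D1:**
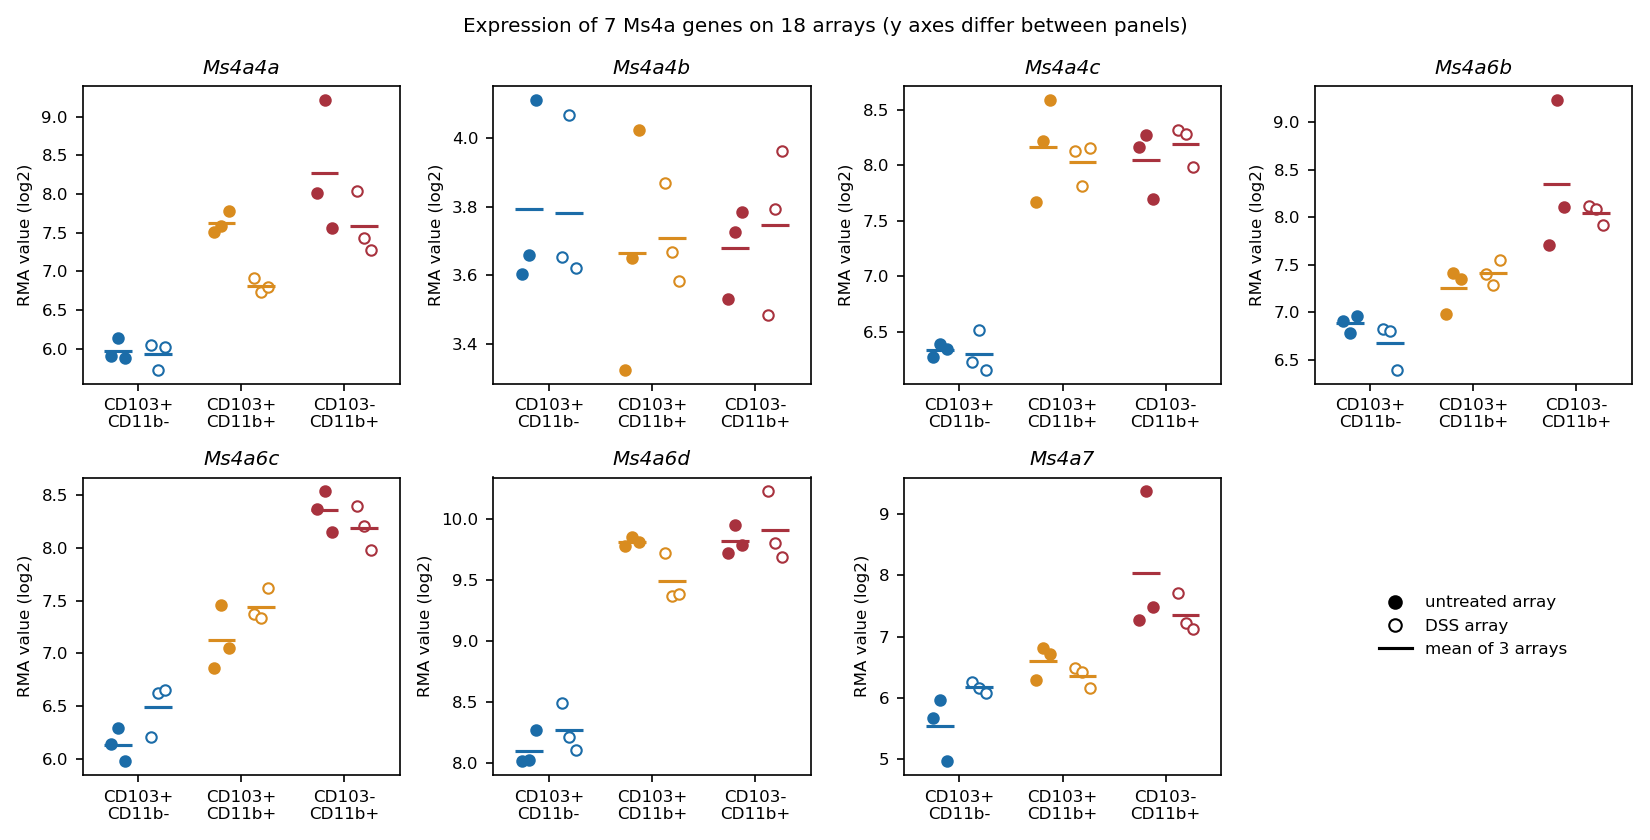
Log2 RMA value of each gene (y axis, scale of its own in each panel) by subset (x axis), with filled points for untreated and open points for DSS arrays, 3 a group, and a line at the group mean. Ms4a4c and Ms4a6d are low in CD103+CD11b- and high in both other subsets, Ms4a6c rises in steps, and Ms4a4b lies between 3.32 and 4.11 throughout.

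Ms4a6d, a macrophage-associated member, had untreated log2 values of 8.01, 8.02 and 8.27 in CD103+CD11b- cells, 9.78, 9.85 and 9.81 in CD103+CD11b+ and 9.73, 9.95 and 9.79 in CD103-CD11b+. Both CD11b+ groups were above every CD103+CD11b- array and overlapped each other. The log2 difference of CD103+CD11b- from CD103+CD11b+ was -1.71 ± 0.15 (SE; limma, adjusted p = 4.11e-07), a 3.28-fold lower level. From CD103-CD11b+ it was -1.72 ± 0.15 (limma, adjusted p = 1.92e-07). Between the CD11b+ subsets the difference was -0.01, with a 95% interval of -0.33 to 0.31.

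With DSS, Ms4a6d stood at 8.49, 8.21 and 8.11 in CD103+CD11b- cells, 9.72, 9.37 and 9.38 in CD103+CD11b+ and 10.23, 9.80 and 9.69 in CD103-CD11b+. The CD103+CD11b- arrays were again the lowest, and the other 2 groups touched at 9.72 and 9.69. CD103+CD11b- cells differed by -1.22 ± 0.15 from CD103+CD11b+ (limma, adjusted p = 2.88e-05) and by -1.64 ± 0.15 from CD103-CD11b+ (adjusted p = 5.30e-07). The CD11b+ subsets differed by -0.42 ± 0.15, which missed the threshold (adjusted p = 0.283).

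Ms4a4c, which monocytes and myeloid cells express, was likewise low in CD103+CD11b- cells and high in both CD11b+ subsets. Its untreated log2 values were 6.27, 6.39 and 6.34 in CD103+CD11b- cells, 7.67, 8.22 and 8.59 in CD103+CD11b+ and 8.17, 8.28 and 7.70 in CD103-CD11b+. The lowest CD11b+ array was above the highest CD103+CD11b- array by more than the spread within any group. CD103+CD11b- cells were lower than CD103+CD11b+ by 1.83 on the log2 scale (-1.83 ± 0.20, limma, adjusted p = 3.90e-06) and than CD103-CD11b+ by 1.71 (-1.71 ± 0.20, adjusted p = 4.93e-06). The difference between the CD11b+ subsets was 0.11, with a 95% interval of -0.30 to 0.53.

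The DSS arrays of Ms4a4c read 6.23, 6.52 and 6.15, then 8.13, 7.81 and 8.15, then 8.32, 8.28 and 7.98 in the same order of subsets. The gap of CD103+CD11b- cells remained, at -1.73 ± 0.20 against CD103+CD11b+ (limma, adjusted p = 1.05e-05) and -1.89 ± 0.20 against CD103-CD11b+ (adjusted p = 1.96e-06). The difference between the CD11b+ subsets was -0.16, with a 95% interval of -0.58 to 0.25.

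Ms4a6c, a monocyte and macrophage gene, separated all 3 subsets. Untreated values were 6.14, 6.29 and 5.98 in CD103+CD11b- cells, 6.86, 7.46 and 7.05 in CD103+CD11b+ and 8.37, 8.54 and 8.15 in CD103-CD11b+, and no 2 of these groups overlapped. CD103+CD11b- cells were below CD103+CD11b+ cells by a log2 difference of -0.99 ± 0.17 (limma, adjusted p = 7.84e-04). CD103+CD11b+ cells were below CD103-CD11b+ cells by -1.23 ± 0.17 (adjusted p = 4.24e-04), and CD103+CD11b- cells were below CD103-CD11b+ cells by -2.22 ± 0.17 (adjusted p = 3.42e-08), or 4.65-fold.

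With DSS the 3 groups of Ms4a6c again did not overlap, at 6.21, 6.63 and 6.65, then 7.37, 7.33 and 7.62, then 8.39, 8.21 and 7.97. The same 3 differences were -0.94 ± 0.17 (limma, adjusted p = 0.00137), -0.75 ± 0.17 (adjusted p = 0.0321) and -1.69 ± 0.17 (adjusted p = 1.41e-06). The difference of -0.75 was the only call among the 7 genes between the CD11b+ subsets with DSS. It was lost without DSS CD103+CD11b+ replicate 4 (-0.71, adjusted p = 0.137) or replicate 5 (-0.69, adjusted p = 0.139), and without DSS CD103-CD11b+ replicate 4 (-0.65, adjusted p = 0.16) or replicate 5 (-0.74, adjusted p = 0.0839).

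Ms4a4a, a macrophage gene whose protein associates with the fungal receptor Dectin-1, had untreated values of 5.91, 6.13 and 5.88 in CD103+CD11b- cells, 7.51, 7.59 and 7.78 in CD103+CD11b+ and 8.02, 9.22 and 7.57 in CD103-CD11b+. The value of 9.22 is replicate 2; the value of 7.57 in that group fell within the CD103+CD11b+ range. CD103+CD11b- cells were lower than CD103+CD11b+ by -1.65 ± 0.28 (limma, adjusted p = 5.94e-04) and than CD103-CD11b+ by -2.29 ± 0.28 (adjusted p = 9.57e-06); without replicate 2 the second difference was -1.82 and kept its call. The CD11b+ subsets differed by -0.64 ± 0.28 (adjusted p = 0.259), which fell to -0.16 (adjusted p = 0.757) without replicate 2 of untreated CD103-CD11b+ and became a call of -0.99 (adjusted p = 0.0466) without replicate 3.

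In DSS cells Ms4a4a read 6.05, 5.72 and 6.02 in CD103+CD11b-, 6.92, 6.73 and 6.79 in CD103+CD11b+ and 8.03, 7.43 and 7.28 in CD103-CD11b+, with no overlap between subsets. Only the widest of these gaps passed the test, CD103+CD11b- against CD103-CD11b+ at -1.65 ± 0.28 (limma, adjusted p = 5.13e-04). CD103+CD11b- against CD103+CD11b+ was -0.88 ± 0.28 (adjusted p = 0.0778), and it passed with the experiment number as a block (adjusted p = 0.0413). The CD11b+ subsets differed by -0.77 ± 0.28 (adjusted p = 0.283).

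Ms4a7, a gene of mature tissue macrophages, covered the widest range of the 7. Untreated values were 5.67, 5.96 and 4.96 in CD103+CD11b- cells, 6.29, 6.81 and 6.71 in CD103+CD11b+ and 7.27, 9.38 and 7.49 in CD103-CD11b+. No groups overlapped, and replicate 2 at 9.38 was above the other arrays of its group by more than all of them spanned. CD103+CD11b- cells were lower than CD103-CD11b+ by -2.51 ± 0.37 (limma, adjusted p = 1.05e-04), or 5.71-fold, and by -1.85 without replicate 2, where the call held.

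CD103+CD11b+ cells had less Ms4a7 than CD103-CD11b+ by -1.44 ± 0.37 (limma, adjusted p = 0.0335). This call rested on several arrays: the difference was -0.77 (adjusted p = 0.112) without untreated CD103-CD11b+ replicate 2, and it missed the threshold as well when the array left out was untreated CD103+CD11b+ replicate 1 (-1.28, adjusted p = 0.136), replicate 2 (-1.54, adjusted p = 0.067) or replicate 3 (-1.49, adjusted p = 0.0611). CD103+CD11b- against CD103+CD11b+ was -1.07 ± 0.37 (adjusted p = 0.102), and it passed with the experiment number as a block (adjusted p = 0.0231).

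With DSS, Ms4a7 stood at 6.26, 6.16 and 6.08, then 6.48, 6.42 and 6.16, then 7.71, 7.22 and 7.12, so the 2 CD103+ subsets overlapped and the CD103-CD11b+ arrays were above both. CD103+CD11b- against CD103-CD11b+ was -1.18 ± 0.37 (limma, adjusted p = 0.0585), which passed with the experiment block (adjusted p = 0.0104). CD103+CD11b+ against CD103-CD11b+ was -0.996 ± 0.374 (adjusted p = 0.304), and the CD103+ subsets differed by -0.19, with a 95% interval of -0.97 to 0.60.

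Ms4a6b, expressed by macrophages and also by T cells, read 6.91, 6.78 and 6.97 in untreated CD103+CD11b- cells, 6.98, 7.42 and 7.35 in CD103+CD11b+ and 7.71, 9.24 and 8.11 in CD103-CD11b+. The CD103+ subsets nearly met at 6.97 and 6.98, and replicate 2 at 9.24 again led its group. CD103+CD11b- cells were lower than CD103-CD11b+ by -1.47 ± 0.26 (limma, adjusted p = 5.30e-04), and by -1.02 without replicate 2, where the call held. CD103+CD11b+ cells were lower than CD103-CD11b+ by -1.10 ± 0.26 (adjusted p = 0.0178); it lost its call when untreated CD103-CD11b+ replicate 2 was left out (-0.66, adjusted p = 0.0545), or untreated CD103+CD11b+ replicate 1 (-0.97, adjusted p = 0.0857). The CD103+ subsets differed by -0.36, with a 95% interval of -0.90 to 0.17.

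The DSS values of Ms4a6b were 6.82, 6.80 and 6.39, then 7.41, 7.29 and 7.55, then 8.12, 8.09 and 7.92, and no 2 subsets overlapped. CD103+CD11b- against CD103-CD11b+ was -1.37 ± 0.26 (limma, adjusted p = 0.00121). CD103+CD11b- against CD103+CD11b+ was -0.74 ± 0.26 (adjusted p = 0.111) and CD103+CD11b+ against CD103-CD11b+ was -0.63 ± 0.26 (adjusted p = 0.381), and both missed the threshold.

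Ms4a4b is the member known from T cells rather than mainly from myeloid cells. In the 3 untreated subsets it read 3.60, 3.66 and 4.11, then 3.32, 3.65 and 4.02, then 3.53, 3.73 and 3.79, in the order CD103+CD11b-, CD103+CD11b+ and CD103-CD11b+. With DSS it read 3.65, 4.07 and 3.62, then 3.87, 3.67 and 3.58, then 3.48, 3.79 and 3.96. All 6 groups overlapped, and 16 of the 18 arrays were above the filter level of 3.51. Its difference of CD103+CD11b- from CD103-CD11b+ in untreated cells was 0.11, with a 95% interval of -0.28 to 0.50. The 6 subset differences lay between -0.04 and 0.13, while its neighbour Ms4a4c gave -1.71 and -1.89 for CD103+CD11b- against CD103-CD11b+ in untreated and DSS cells. The values carry no detection calls, so whether this level is above background was not tested.

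Over the family, 6 of the 7 genes were called lower when CD103+CD11b- cells were set against CD103-CD11b+ without DSS, where 5.32% of all genes tested were called lower. Against CD103+CD11b+ cells 4 of 7 were called lower, with a background of 4.09%. Between the untreated CD11b+ subsets, 3 of 7 were lower in CD103+CD11b+ cells (background 1.75%), and 1 of 7 without untreated CD103-CD11b+ replicate 2 or untreated CD103+CD11b+ replicate 1. With DSS the counts were 5 of 7 against CD103-CD11b+ (background 4.34%), 3 of 7 against CD103+CD11b+ (background 2.39%) and 1 of 7 between the CD11b+ subsets (background 1.14%), or 0 without any of the 4 arrays named for Ms4a6c. None was called higher in any of these 6 comparisons. The median log2 difference of the 7 in that first comparison was -1.72, where the median over all genes was 0.01. The members were chosen with earlier results of these data known, and most of them correlate with each other over the arrays. These counts are therefore a description and not a test of the family.

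**Figure D2:**
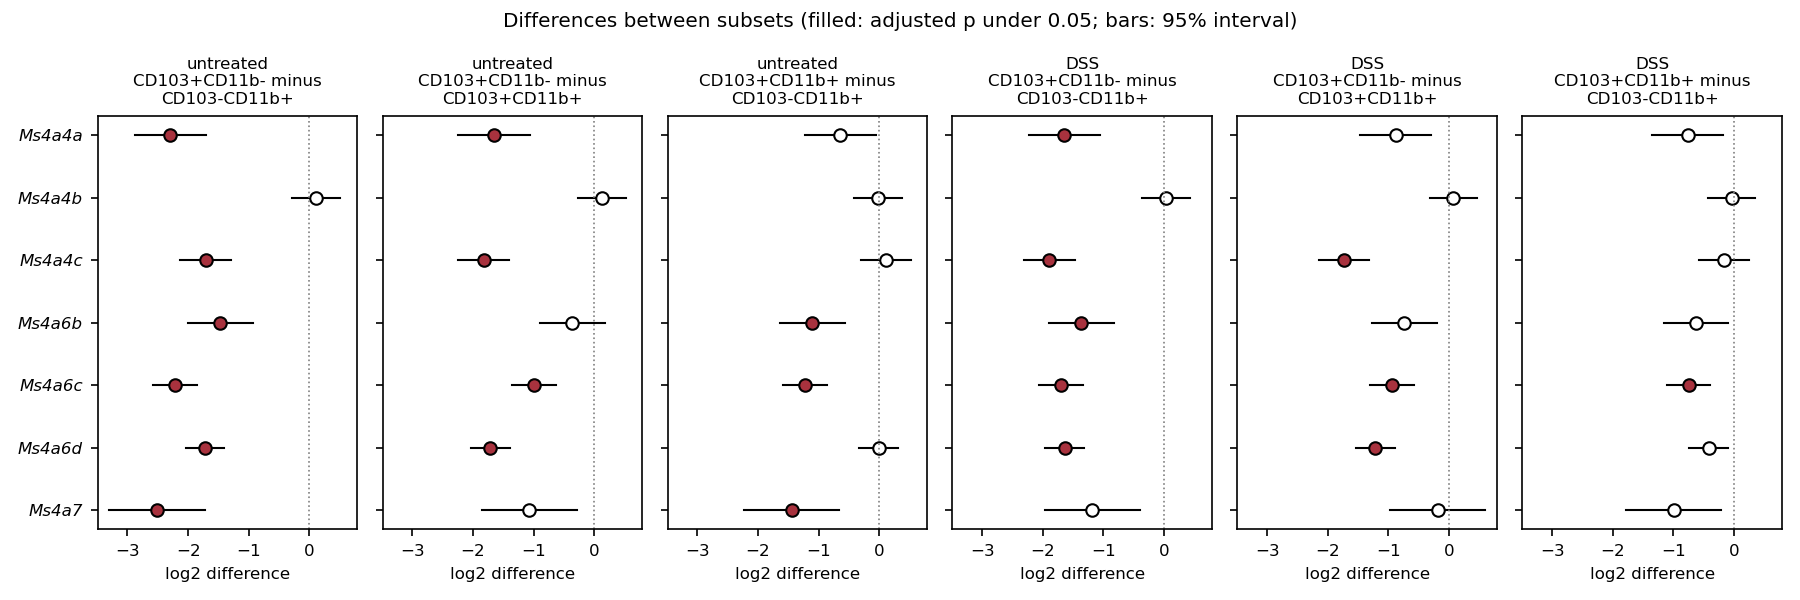
Log2 difference between 2 subsets (x axis) for each gene (rows) in 6 comparisons, with 95% intervals from the fit; filled points have an adjusted p under 0.05. In the leftmost panel 6 of 7 points are filled and below 0, while Ms4a4b stays near 0 in every panel.

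The order of the 6 group means placed untreated and DSS cells of the CD103-CD11b+ subset first and second for Ms4a6b, Ms4a6c, Ms4a6d and Ms4a7, and the arrays of those 2 groups overlapped for each of these genes. For Ms4a6d the untreated CD103+CD11b+ arrays overlapped them as well. The CD103+CD11b- groups came last for every gene except Ms4a4b, and untreated and DSS cells of that subset overlapped for Ms4a4a, Ms4a4c, Ms4a6b, Ms4a6c and Ms4a6d. For Ms4a7 they did not: its DSS values of 6.08 to 6.26 were above its untreated values of 4.96 to 5.96. The gap was 0.11, and the difference was not called. It ranged from 0.35 to 0.85 with single arrays left out. How many of all genes had no such overlap was not counted.

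Many macrophage markers, but not all, differed between the subsets together with the Ms4a genes. In CD103+CD11b- against CD103-CD11b+ without DSS, 11 of 18 macrophage genes were called lower and 1 higher, and the rest were not called. Among those called lower were C1qa, a complement subunit, at -3.02 ± 0.18 (limma, adjusted p = 1.05e-09) and Csf1r, the growth factor receptor of macrophages, at -2.73 ± 0.17 (adjusted p = 3.36e-09). With DSS, 10 of the 18 were called lower and 1 higher in this comparison. Between the untreated CD11b+ subsets 10 of 18 were called lower, led by C1qa at -1.88 ± 0.18 (adjusted p = 1.01e-05). Of 10 cDC2 genes, 9 were called lower in CD103+CD11b- cells against either CD11b+ subset without DSS. Against CD103-CD11b+, Mgl2, a lectin of cDC2 and macrophages, differed by -4.62 ± 0.21 (adjusted p = 3.75e-11). The part of cell composition in the Ms4a differences was not tested.

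Of 14 genes of T, NK and innate lymphoid cells tested, 2 were called lower in that comparison, the co-receptor gene Cd4 (-1.65 ± 0.28, limma, adjusted p = 4.90e-04) and the cytokine receptor gene Il7r (-1.61 ± 0.18, adjusted p = 2.43e-06). The mean log2 value of these 14 genes ranged from 5.47 to 5.56 on untreated CD103+CD11b- arrays and from 5.62 to 5.96 on CD103-CD11b+ arrays. That mean includes Cd4 and Il7r, the only genes of the list called there. The median log2 difference of the 14 was -0.22, where the median over all genes was 0.01. Whether lymphoid cells were present was not tested. Of 6 plasmacytoid DC genes, 3 were called lower in the same comparison: Siglech (-1.58 ± 0.29, adjusted p = 8.68e-04), Ccr9 (-0.83 ± 0.26, adjusted p = 0.0436) and Tcf4 (-0.74 ± 0.14, adjusted p = 0.00163). Of 10 monocyte genes, 2 were called lower without DSS, S100a4 (-1.71 ± 0.20, limma, adjusted p = 6.72e-06) and F13a1 (-0.95 ± 0.26, adjusted p = 0.0243), and 5 with DSS. None of 8 B-cell and plasma-cell genes was called in any subset comparison. Their mean log2 value was nevertheless between 7.26 and 8.01 on the 18 arrays, and that of 11 epithelium genes between 8.02 and 9.05. The part of other cells in this RNA was not tested.

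**Figure D3:**
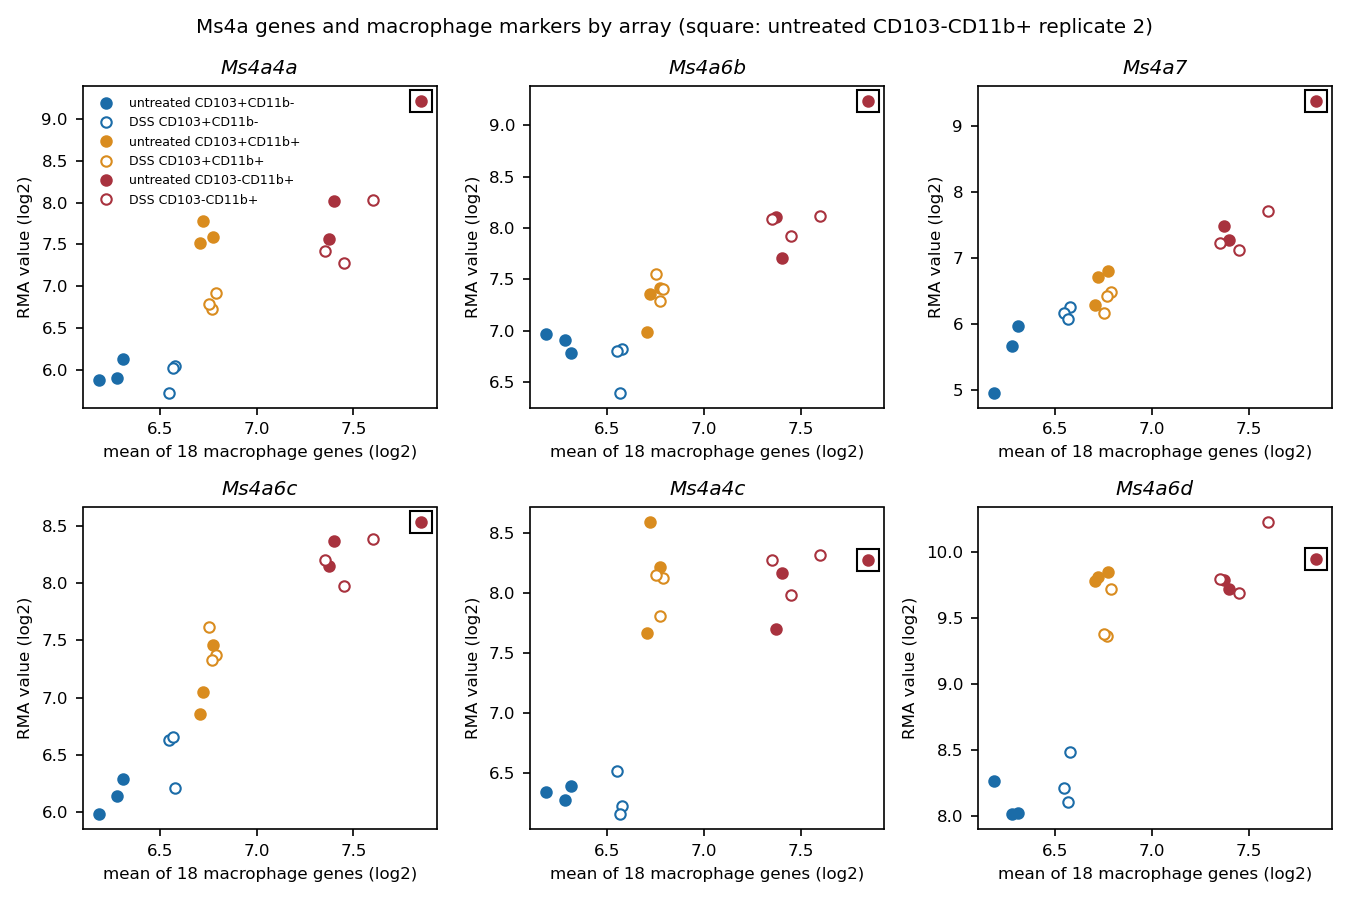
Log2 value of 6 Ms4a genes (y axis) against the mean log2 value of 18 macrophage genes (x axis) on each of the 18 arrays, coloured by subset, filled for untreated and open for DSS; the square marks replicate 2 of untreated CD103-CD11b+. That array is farthest right at 7.85 and highest for Ms4a4a, Ms4a6b, Ms4a6c and Ms4a7. Ms4a4c and Ms4a6d, in contrast, are about as high in untreated CD103+CD11b+ arrays, whose macrophage mean is near 6.7, as in untreated CD103-CD11b+ arrays. With DSS the mean of Ms4a6d is 9.49 in CD103+CD11b+ and 9.91 in CD103-CD11b+ cells.

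The genes most alike in pattern over the 18 arrays differed between members. These correlations mostly follow the 6 group means, which the arrays share, and are given as a description. Ms4a6d was closest to Mmp12, a macrophage elastase (Pearson r = 0.98), Nrp2 (0.98) and Cd209a, a lectin of cDC2 (0.97). Ms4a4c was closest to Clec4n, which encodes the receptor Dectin-2 (r = 0.97), Hnrnpll (0.96) and Clec10a (0.96). Ms4a6c was closest to the scavenger receptor gene Msr1 (r = 0.98), the transcription factor gene Zeb2 (0.97) and Tmem176a (0.97).

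Ms4a7 was closest to C3ar1, the receptor of complement C3a (r = 0.94), Selenop (0.94) and C1qb (0.94). C3ar1 also headed the genes nearest to Ms4a6b (r = 0.95), before Wdr81 (0.95) and Cln8 (0.94). Ms4a4a was closest to Pgf (r = 0.96), the inhibitory receptor gene Cd33 (0.93) and the lysosomal protease gene Tpp1 (0.92). For Ms4a4b the nearest were Lhfpl4 (r = 0.71), Setd2 (0.68) and Ufsp1 (0.66), at a level where values hardly varied.

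Among the members themselves, Ms4a4c and Ms4a6d were most alike (r = 0.95 over 18 arrays), then Ms4a6b and Ms4a7 (0.90) and Ms4a4a and Ms4a7 (0.89). After each group's mean was subtracted, Ms4a4c and Ms4a6d fell to 0.28, whereas Ms4a4a and Ms4a7 stood at 0.86 and Ms4a6b and Ms4a7 at 0.80. These last 3 genes are those with replicate 2 of untreated CD103-CD11b+ far above its group. Ms4a4b correlated with the other members at -0.24 to -0.00.

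**Figure D4:**
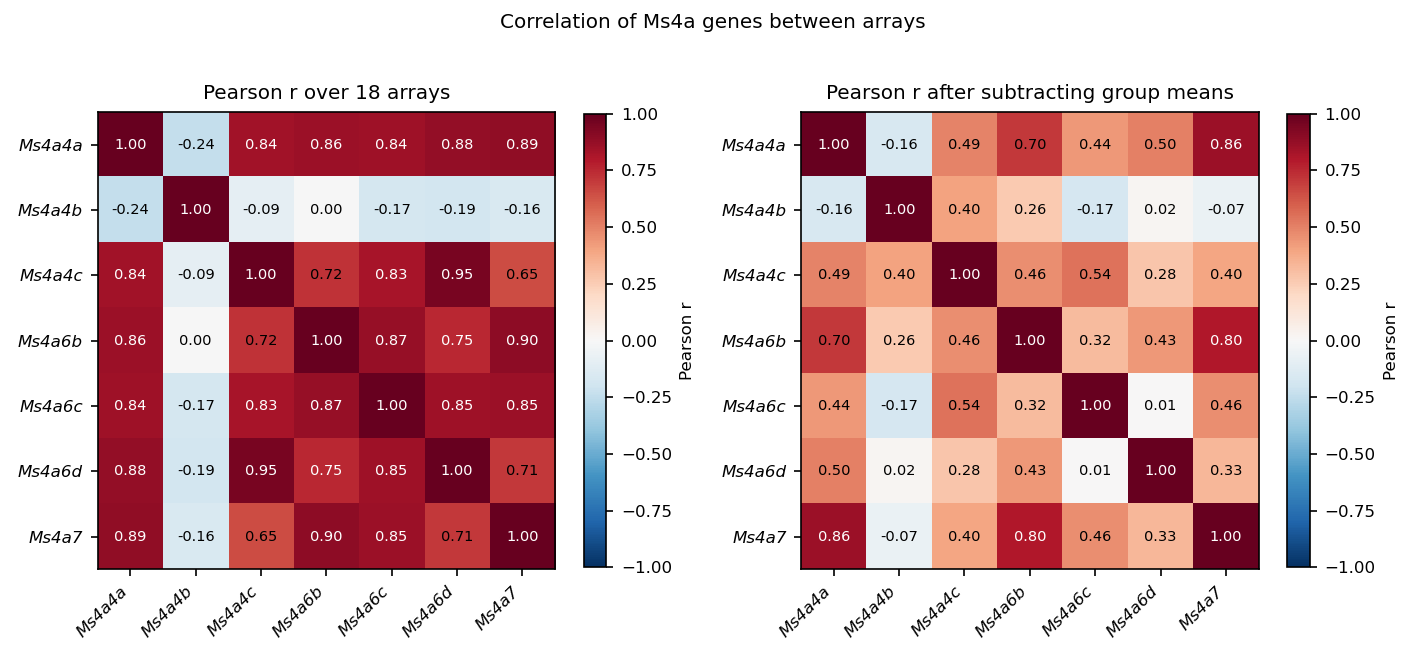
Pearson correlation between each pair of the 7 genes over 18 arrays (left) and after subtracting the mean of each group (right), coloured from -1 to 1. Ms4a4c and Ms4a6d go from 0.95 to 0.28, and Ms4a4a and Ms4a7 from 0.89 to 0.86.

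No member passed the test for a change with DSS. None of the 7 genes was called in CD103+CD11b- cells (0.129% of all genes), in CD103+CD11b+ cells (0.0857%) or in CD103-CD11b+ cells (0.1%) by limma at an adjusted p under 0.05. At an unadjusted p under 0.05 the counts were 0, 2 and 1 of 7, where 6.08%, 10.1% and 7.67% of all genes passed. The lowest unadjusted p belonged to Ms4a4a in CD103+CD11b+ cells, where untreated values of 7.51 to 7.78 lay above DSS values of 6.73 to 6.92. The log2 difference was -0.81 ± 0.28, with a 95% interval of -1.40 to -0.22 (limma, adjusted p = 0.333). How many of all genes had untreated and DSS values without overlap in these cells was not counted.

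Ms4a6d in the same cells differed by -0.32 ± 0.15 (limma, adjusted p = 0.488), and Ms4a4a in CD103-CD11b+ cells by -0.69 ± 0.28 (adjusted p = 0.563), where the groups overlapped. Without untreated CD103-CD11b+ replicate 2 the latter was -0.21 (adjusted p = 0.796), and Ms4a6b in these cells went from -0.31 to 0.13. Ms4a7 differed by 0.64 ± 0.37 in CD103+CD11b- cells (adjusted p = 0.88) and by -0.69 ± 0.37 in CD103-CD11b+ cells (adjusted p = 0.695). The second Ms4a7 difference rested on untreated CD103-CD11b+ replicate 2 and was -0.027 without it (adjusted p = 0.985). In CD103+CD11b- cells the mean of the 18 macrophage genes went with it, from 6.19 to 6.31 without DSS to 6.55 to 6.58 with DSS, and its part in the Ms4a7 difference was not tested. The other members' differences lay between -0.31 and 0.36. The 95% intervals of the 21 differences reached from -1.48 to 1.42, so changes of a factor over 2 were not excluded for Ms4a4a and Ms4a7. Of the 18 macrophage genes none was called with DSS in any subset, nor were any of 15 interferon-stimulated genes. Genes of other lists were called higher with DSS (limma). In CD103-CD11b+ cells these were the cDC1 genes Clec9a (1.40 ± 0.26, adjusted p = 0.0451) and Itgae (1.08 ± 0.13, adjusted p = 0.00103) and the mast cell and basophil gene Hdc (1.18 ± 0.22, adjusted p = 0.042). In CD103+CD11b- cells they were Sirpa (0.83 ± 0.14, adjusted p = 0.0215) and the neutrophil gene Retnlg (1.33 ± 0.25, adjusted p = 0.0413). In CD103+CD11b+ cells they were Retnlg (1.44 ± 0.25, adjusted p = 0.0282) and the eosinophil gene Ccr3 (1.31 ± 0.23, adjusted p = 0.0262).

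**Figure D5:**
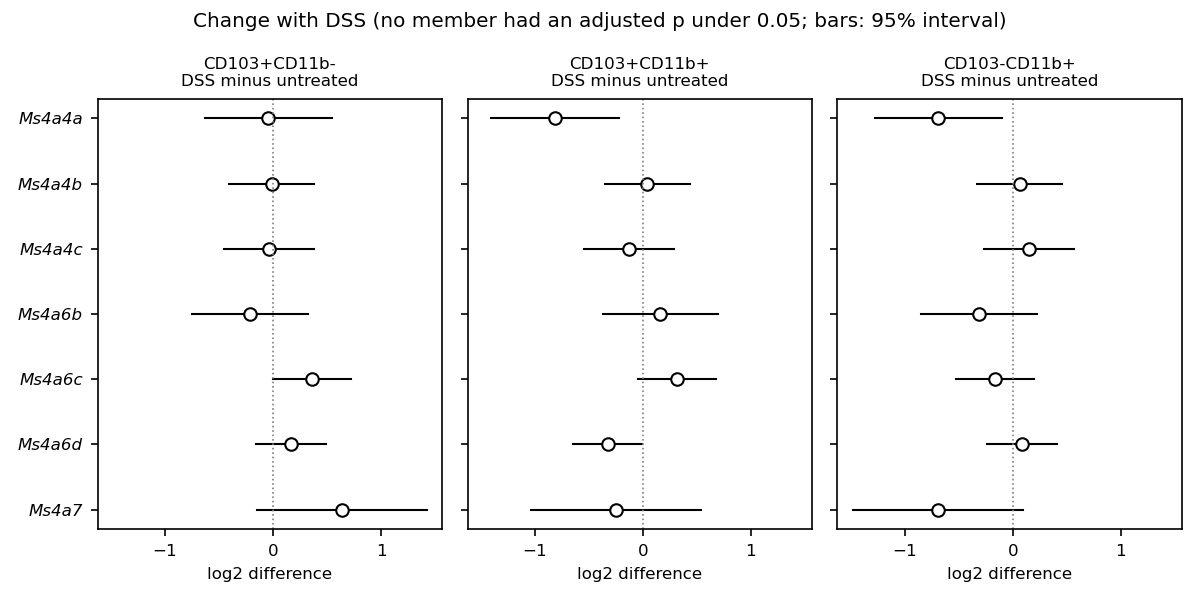
Log2 difference of DSS from untreated cells (x axis) for each gene (rows) in the 3 subsets, with 95% intervals from the fit. No adjusted p was under 0.05; the point farthest below 0 is Ms4a4a in CD103+CD11b+ cells at -0.81, and the widest intervals are those of Ms4a7.

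Whether DSS acted differently on the subsets was tested as a difference of changes. None of the 7 genes, and 0% of all genes, had an adjusted p under 0.05 in any of the 3 such comparisons (limma). At an unadjusted p under 0.05 there were 2 of 7 for CD103+CD11b- minus CD103-CD11b+ (3.64% of all genes), 1 for CD103+CD11b- minus CD103+CD11b+ (4.83%) and 0 for CD103+CD11b+ minus CD103-CD11b+ (5.56%). The first 2 were Ms4a7, with 1.33 ± 0.53, and Ms4a6c, with 0.52 ± 0.24, both at an adjusted p of 1.00. The value of Ms4a7 was 0.66 without untreated CD103-CD11b+ replicate 2. The remaining one was Ms4a6d, with 0.49 ± 0.22 (adjusted p = 0.983).

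Other family members were read from a list of 17 genes, of which 14 had a probe set and 8 were tested. Only 3 of the 8 were called in any comparison. Tmem176a, a more distant relative that encodes an intracellular cation channel of dendritic cells, was called in all 6 subset comparisons, at -2.10 ± 0.16 between CD103+CD11b- and CD103-CD11b+ without DSS (limma, adjusted p = 1.98e-08) and at -0.96 ± 0.16 between the untreated CD11b+ subsets (adjusted p = 0.00135). Its partner Tmem176b was called in 5, at -1.76 ± 0.19 and -0.88 ± 0.19 in these comparisons, and missed in DSS CD103+CD11b- against CD103+CD11b+ cells (-0.54 ± 0.19, adjusted p = 0.12). Ms4a8a was lower in DSS CD103+CD11b- than in CD103-CD11b+ cells (-0.63 ± 0.18, adjusted p = 0.032). Ms4a1, Ms4a4d, Ms4a10, Ms4a12 and Ms4a15 were not called in any comparison, and Ms4a2 and Ms4a3 were below the filter level on every array.

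Genes of proteins known to associate with Ms4a proteins, or to signal beside them, were read from a list of 8, of which 6 were tested. Without DSS, 3 of 6 were lower in CD103+CD11b- against CD103-CD11b+: Fcer1g, the Fc receptor gamma chain (-1.54 ± 0.11, limma, adjusted p = 1.11e-08), Tyrobp, the adaptor DAP12 (-0.90 ± 0.12, adjusted p = 2.12e-05) and the kinase gene Syk (-0.84 ± 0.16, adjusted p = 0.00118). With DSS 5 of 6 were lower in this comparison, and Clec7a, which encodes Dectin-1, differed by -1.20 ± 0.21 (adjusted p = 5.39e-04). Trem2, a lipid receptor of macrophages, differed by -0.73 ± 0.16 (adjusted p = 0.00559). None of the 6 was called for DSS against untreated cells in any subset.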

How the data were processed

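The deposited values are log2 expression levels of probe sets. Per the submitters' processing notes they come from RMA, which subtracts background, applies quantile normalization and combines the probes of a set. Its version is not given in the sources used here. Per the labels' protocols, amplification (Ovation Pico) started from 5 ng of RNA, and labelling from 5.5 ug of single-stranded DNA. Of 34760 probe sets, 21640 with 1 symbol were used, and 19937 genes were represented. A probe set was kept if above the 40th percentile of all values (3.51) in at least 3 of 18 arrays; the one with the highest mean stood for its gene. All arrays entered 1 fit with limma 3.58.1 in R 4.3.3, a mean for every group, 12 two-sided comparisons and Benjamini-Hochberg adjustment over 14003 genes; an adjusted p under 0.05 was a call. The fit was tested on simulated data with independent noise on each array, so that test did not cover arrays that share an experiment. The 18 arrays limit the precision. Folds are 2 to the power of the log2 difference.

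The text names all 7 members, called genes of the other Ms4a list, at most 4 called genes of each other list per comparison, and the 3 genes nearest each member by Pearson correlation. Markers of the sort, DSS results that missed the threshold and family genes that were not called were named after their values were seen. Members and lists were chosen with earlier results of these data known. Titles name the experiment that the 3 subsets of a condition share. Deviations from group means correlated at -0.03 to 0.32 in the 9 same-experiment pairs without DSS (median 0.25, other pairs -0.12). In the 9 with DSS they correlated at 0.11 to 0.31 (median 0.18, other pairs -0.13). By label the experiment number pairs the samples, but the main fit had no term for it. It entered as a block only among the alternatives. Alternatives were the normalization, the filter, the groups fitted, the variance model, the probe set, the block and each array left out. The files name no genome build; promoter coordinates are RefSeq's.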

Additional observations from a re-analysis of the deposited data

How the results depend on the processing

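Of 1353 values of the 7 genes under the alternatives, 1268 kept their direction and their side of the threshold, 13 lost a call, 14 gained one and 58 changed sign; no sign change involved a call on either side. The calls of CD103+CD11b- against CD103-CD11b+ in untreated cells numbered 6 under every alternative run. Fitting only the groups compared gave 1 call in place of 3 between the untreated CD11b+ subsets, 5 in place of 3 for DSS CD103+CD11b- against CD103+CD11b+, and 3 in place of 1 between the DSS CD11b+ subsets; Ms4a7 also gained a call in DSS CD103+CD11b- against CD103-CD11b+ cells (adjusted p = 0.00155) and, without DSS, in CD103+CD11b- against CD103+CD11b+ (0.0307); fewer samples set the spread there. Leaving out single arrays gave 1 to 4 calls between the untreated CD11b+ subsets and 0 to 1 between the DSS CD11b+ subsets. Ms4a7 in DSS CD103+CD11b- against CD103-CD11b+ cells gained a call after a second quantile normalization (adjusted p = 0.0491) and with the 60th percentile filter (0.0491), as did Ms4a4a in DSS CD103+CD11b- against CD103+CD11b+ cells after that normalization (0.0447); Ms4a7 between the untreated CD11b+ subsets lost its call with a trended, robust variance (0.0581). The cause was not tested.

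With the experiment number as a fixed replicate block, the calls were 6, 5 and 3 in untreated and 6, 4 and 1 in DSS comparisons (CD103+CD11b- against CD103-CD11b+, against CD103+CD11b+, and between the CD11b+ subsets); the 3 gains are Ms4a7 in the first DSS and the second untreated comparison and Ms4a4a in the second DSS comparison, with their adjusted p given beside those results. As a random block (consensus correlation 0.0596) they were 6, 4, 3, 6, 3 and 1. The block changed no other call.

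Over all genes, the count between the untreated CD11b+ subsets went from 575 to 150 with only those groups fitted and to 315 without untreated CD103-CD11b+ replicate 2. Between the DSS CD11b+ subsets it went from 221 to as few as 97 with an array left out. DSS against untreated gave 18 genes in CD103+CD11b- cells, 12 in CD103+CD11b+ and 14 in CD103-CD11b+; the last was 6 with the 60th percentile filter, 3 with only the groups compared and 24 with the trended, robust variance, and the second was 0 with only the groups compared.

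Differences near 0 that changed sign with an array left out ranged as follows. Untreated subsets: Ms4a4b -0.048 to 0.21 (CD103+CD11b- against CD103-CD11b+), -0.044 to 0.31 (against CD103+CD11b+) and -0.19 to 0.16 (between the CD11b+ subsets), where Ms4a4c gave -0.10 to 0.36 and Ms4a6d -0.056 to 0.058. DSS subsets, Ms4a4b in the same order: -0.11 to 0.14, -0.070 to 0.15 and -0.17 to 0.069. DSS against untreated in CD103+CD11b-: Ms4a4a -0.10 to 0.063, Ms4a4b -0.16 to 0.15, Ms4a4c -0.14 to 0.038. In CD103+CD11b+: Ms4a4b -0.13 to 0.22, Ms4a4c -0.37 to 0.087. In CD103-CD11b+: Ms4a4b -0.042 to 0.20, Ms4a4c -0.027 to 0.26, Ms4a6b -0.63 to 0.13, Ms4a6d -0.076 to 0.19. Differences of the DSS changes, CD103+CD11b- minus CD103-CD11b+: Ms4a4b -0.22 to 0.082, Ms4a6b -0.35 to 0.42, Ms4a6d -0.027 to 0.24. CD103+CD11b- minus CD103+CD11b+: Ms4a4b -0.23 to 0.12, Ms4a4c -0.12 to 0.34, Ms4a6c -0.13 to 0.19 and, after a second quantile normalization, -0.039. CD103+CD11b+ minus CD103-CD11b+: Ms4a4a -0.60 to 0.23, Ms4a4b -0.19 to 0.16, Ms4a7 -0.22 to 0.83.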
